A study of Mus musculus with 16 samples.

Results

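The Schlafen genes (Slfn) encode a family of intracellular proteins that T cells and myeloid cells express and that interferon signaling can raise. The rows of the deposited count table whose gene name was Slfn1, Slfn2, Slfn3, Slfn4, Slfn5, Slfn8 or Slfn9 were taken, which gave 7 genes of the 55450 in the table. The counts came from RNA-seq of CD4+ and CD8+ tumor-infiltrating lymphocytes (TILs) from subcutaneous tumors of B16F10, a transplantable mouse melanoma line. The hosts were WT mice (C57BL/6J) and Sirt2-/- mice (B6.129-Sirt2tm1.1Fwa/J), which lack the NAD-dependent deacetylase SIRT2 in all cells of the host and not in T cells alone. Mice of both sexes were used at 7 to 8 weeks of age, matched between genotypes, and the sex behind each library is not in the labels. Each of the 4 groups (CD4+ WT, CD4+ Sirt2-/-, CD8+ WT and CD8+ Sirt2-/-) had 4 libraries and 16 were sequenced in all. The sequencing was done to see how loss of Sirt2 alters pathways downstream of the T cell antigen receptor in the tumor. Here the 7 genes were compared between genotypes in each cell type and between cell types in each genotype.

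As background, mouse Schlafen proteins come in short (Slfn1, Slfn2), intermediate (Slfn3, Slfn4) and long forms (Slfn5, Slfn8, Slfn9), and the long forms add a helicase-like region to the shared core. Slfn2 is needed to keep T cells quiescent: mice that carry a defective Slfn2 lose peripheral T cells, and the protein binds tRNA and shields it from cleavage. Type I interferon acts on promoters mainly through the interferon-stimulated response element (ISRE), whereas interferon gamma acts mainly through the GAS element.

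All 7 genes lie on chromosome 11 within 263.8 kb, from 82951349 to 83215154 of GRCm38, and all are annotated as protein coding (GENCODE). In order along the chromosome they are Slfn5 on the plus strand, Slfn9 and Slfn8 on the minus strand, and Slfn2, Slfn1, Slfn4 and Slfn3 on the plus strand. The coding sequences were 1011 bases long in Slfn1 and 1134 in Slfn2, 1920 in Slfn3 and 1806 in Slfn4, and 2652 in Slfn5 and 2730 in both Slfn8 and Slfn9. Aligned coding bases were 92.7% identical between Slfn8 and Slfn9, 91.0% between Slfn3 and Slfn4 and 68.6% between Slfn1 and Slfn2, whereas Slfn5 matched Slfn8 at 59.0%. This bears on counting, since reads from near-identical stretches can be discarded or misplaced. Of all 100-base windows of the transcripts, 3.71% in Slfn8, 3.9% in Slfn9 and 3.62% in Slfn3 also occurred in another gene, against 0 in Slfn1, 0.128% in Slfn2, 0.255% in Slfn5 and 0.285% in Slfn4. Slfn8 and Slfn9 shared 50 of these windows with each other, and 105 and 181 with the pseudogene Slfn10-ps. Those of Slfn3 were shared mainly with Gm11427 (93 windows) and not with Slfn4. The values of Slfn3, Slfn8 and Slfn9 are the ones that such reads could affect most, and the antisense gene Slfn5os overlaps Slfn5.

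The promoters were read for the letters of both interferon elements, because these are the sequences through which the family is thought to be induced. The RefSeq promoter set (GRCm38.p6, 250 bases before to 50 bases after each start) held 8 entries for the 7 genes. The ISRE core, 2 copies of GAAA separated by any 2 bases and searched on both strands, was in 4 of the 8 entries, belonging to Slfn5, Slfn9 and both starts of Slfn8, and in 3.44% of all 32851 promoters. The GAS letters, TTC and GAA separated by any 3 bases and the same on both strands, were in 0 of the 8 entries and in 8.3% of all promoters. The 30-base windows below are shown because they hold every ISRE core found in the family, in capitals, 5′ to 3′ on the strand of the gene.
Slfn5, chr11:82951937-82951966, plus strand: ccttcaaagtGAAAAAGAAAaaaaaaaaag
Slfn9, chr11:82991856-82991885, minus strand: atccgagcagTTTCGTTTTCccaaaaacaa
Slfn8, chr11:83020839-83020868, minus strand: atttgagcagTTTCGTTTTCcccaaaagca
The core began at -155 from the start in Slfn5, at -45 in Slfn9 and at -48 and -136 from the 2 starts of Slfn8, which share 1 site. In Slfn9 and Slfn8 the core lay on the opposite strand, and its letters were the same in both genes. A match is a description of the letters and not of binding, and the missing letters in Slfn1, Slfn2, Slfn3 and Slfn4 concern these windows only.

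Total counts ran from 28000949 to 62407851 per library. In all, 3 libraries stood apart by the number of genes with at least 1 count: 8169 in CD4+ Sirt2-/- replicate 4, 12587 in CD4+ WT replicate 1 and 14411 in CD8+ WT replicate 1, against 17730 to 22138 in the other 13. Values without all 3 are given beside the results that they move. As a check of the labels, Sirt2 had 1196 to 2272 counts in the WT libraries and 322 to 553 in the Sirt2-/- libraries, apart from 0 in CD4+ Sirt2-/- replicate 4. Cd4 was at 383 to 622 CPM (counts scaled to library size) in the CD4+ libraries and at most 4.93 in the CD8+ libraries. Cd8a was at 957 to 1281 CPM in the CD8+ libraries. In CD4+ libraries it was at 10.4 to 33.6 CPM without Sirt2 and at 0.0323 to 9.27 CPM in WT. All 3 CD8 lineage markers had a log2 fold change above 0 between genotypes in CD4+ TILs. Their median was 1.05, or 0.38 without the 3 libraries, with 0 called by edgeR. The part of CD8+ cells in the CD4+ Schlafen levels was not tested. Summed melanocyte markers reached 81.4 CPM in CD4+ Sirt2-/- replicate 4 and 100.1 CPM in CD4+ WT replicate 1, against 3.92 to 16.2 CPM in the other libraries.

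The short forms dominated the family. Per kb of exon, which allows levels of different genes to be compared, Slfn2 was the highest of the 7 in every library but CD4+ WT replicate 1, where Slfn1 was, with a mean of 287 ± 87 CPM per kb (SD, n = 4) in CD4+ WT TILs. Slfn1, a short form named for the growth arrest it causes in thymocytes, followed at 224 ± 40.6 CPM per kb. The ranges of Slfn2 and Slfn1 overlapped in all 4 groups, so the order of this pair does not exceed the spread between libraries, although Slfn2 was above Slfn1 in at least 3 of 4 libraries of every group. Slfn8, a long form, came next at 57.9 ± 17.8 CPM per kb in CD4+ WT TILs, and its range did not overlap that of Slfn1 in any group.

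Slfn5, a long form that acts in the nucleus on interferon-regulated transcription, stood at 28.9 ± 13.1 CPM per kb in CD4+ WT TILs but at 8.66 ± 4.89 in CD8+ WT TILs, level with Slfn9 at 8.89 ± 3.56. Slfn9 and Slfn3 were neighbors at the lower end, with overlapping ranges in both CD4+ groups. Slfn3 was at 4.58 ± 2.43 CPM per kb in CD4+ WT TILs. Slfn4, best known from monocytes and macrophages, was the lowest of the 7 at 0.336 ± 0.253 CPM per kb there. The sum of the 7 genes took 0.0608% to 0.319% of all counts in a library.

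**Figure D1:**
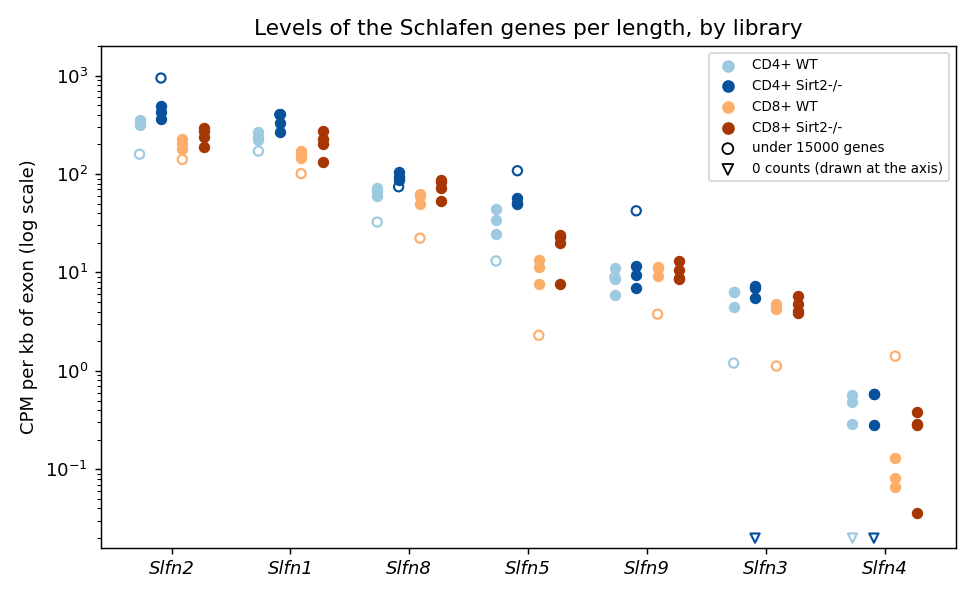
Level of each Schlafen gene in CPM per kb of exon (log scale), 1 point per library, colored by group, with open points for the 3 libraries with under 15000 genes detected and triangles for 0 counts. Slfn2 and Slfn1 lie highest, Slfn8 below them, and Slfn4 lowest in most libraries, while Slfn5 lies near Slfn9 in the CD8+ WT libraries and above it in the CD4+ libraries.

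The first comparison asked whether loss of Sirt2 altered the family in CD4+ TILs. Slfn5, Slfn1, Slfn2 and Slfn8 were each higher in the Sirt2-/- libraries at an unadjusted p below 0.05, by 1.55-fold to 2.28-fold, but no gene of the 15070 tested passed the adjusted threshold of 0.05 in edgeR's quasi-likelihood test. Slfn9, Slfn3 and Slfn4 did not reach even the unadjusted threshold. Of all genes tested, 0.995% were higher at that unadjusted level, against 4 of 7 members. DESeq2 called 7 genes and limma-voom 4, none of them a member.

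Slfn5 was at 322, 364, 315 and 681 CPM in the 4 CD4+ Sirt2-/- libraries and at 82.8, 215, 156 and 277 CPM in the 4 CD4+ WT libraries. The groups did not overlap, and the library with the fewest genes detected was the highest. The log2 fold change was 1.19 ± 0.37 (SE; unadjusted p = 0.0089, adjusted p = 1, edgeR), the 19th smallest p of 15070, and 0.63 ± 0.18 without the 3 libraries with few genes (unadjusted p = 0.0041, adjusted p = 0.72).

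Slfn2 was at 822, 706, 609 and 1570.2 CPM without Sirt2 and at 264, 586, 537 and 523 CPM in WT. Its groups did not overlap either, but the extremes at both ends were libraries with few genes. The log2 fold change of 0.95 ± 0.33 (SE; unadjusted p = 0.016, adjusted p = 1, edgeR) was 0.38 ± 0.13 (adjusted p = 0.91) when the 3 libraries with few genes were left out.

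Slfn8 was at 431, 385, 357 and 303 CPM in the Sirt2-/- libraries and at 133, 276, 242 and 296 CPM in the WT libraries. The lowest Sirt2-/- library was just above the highest WT library. Its log2 fold change was 0.63 ± 0.24 (SE; unadjusted p = 0.026, adjusted p = 1, edgeR), and 0.53 ± 0.13 without the 3 libraries (unadjusted p = 0.0013, adjusted p = 0.44).

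Slfn1 was at 751, 613, 496 and 748 CPM without Sirt2 and at 319, 445, 408 and 499 CPM in WT. The groups overlapped narrowly, at 1 library on each side. The log2 fold change was 0.63 ± 0.19 (SE; unadjusted p = 0.0081, adjusted p = 1, edgeR), the 17th smallest p of all genes tested, and 0.46 ± 0.15 without the 3 libraries. Slfn2, Slfn5 and Slfn8 made 3 of 7 members whose Sirt2-/- libraries were all above the WT libraries, as were 1.38% of all genes tested. Without the 3 libraries with few genes, the same 4 genes were higher at an unadjusted p below 0.05, as were 2.6% of all genes, and the same 3 did not overlap, as did 5.84% of all genes not. The threshold was then passed by 0.0249% of all genes in this direction and by 0 members (lowest adjusted p = 0.44, edgeR).

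Slfn9 was at 41.2, 69, 56.7 and 252 CPM without Sirt2 and at 53.5, 66, 51.2 and 35.3 CPM in WT. A single library carried the difference of 1.01 ± 0.52 (SE; adjusted p = 1, edgeR), which was 0.13 ± 0.23 without the 3 libraries. In that library, CD4+ Sirt2-/- replicate 4, the ratio of Slfn9 to its near copy Slfn8 was 0.832, against 0.0956 to 0.179 in the other 3 of its group. Slfn3 was at 24.6, 18.8, 23.6 and 0 CPM without Sirt2 and at 4.11, 21.8, 15 and 21.5 CPM in WT, where the lowest values again belonged to libraries with few genes. Slfn4 never exceeded 2.29 CPM in CD4+ TILs. The log2 fold changes of Slfn3 and Slfn4 were 0.10 ± 1.42 and 0.10 ± 1.78 (adjusted p = 1 for both, edgeR).

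**Figure D2:**
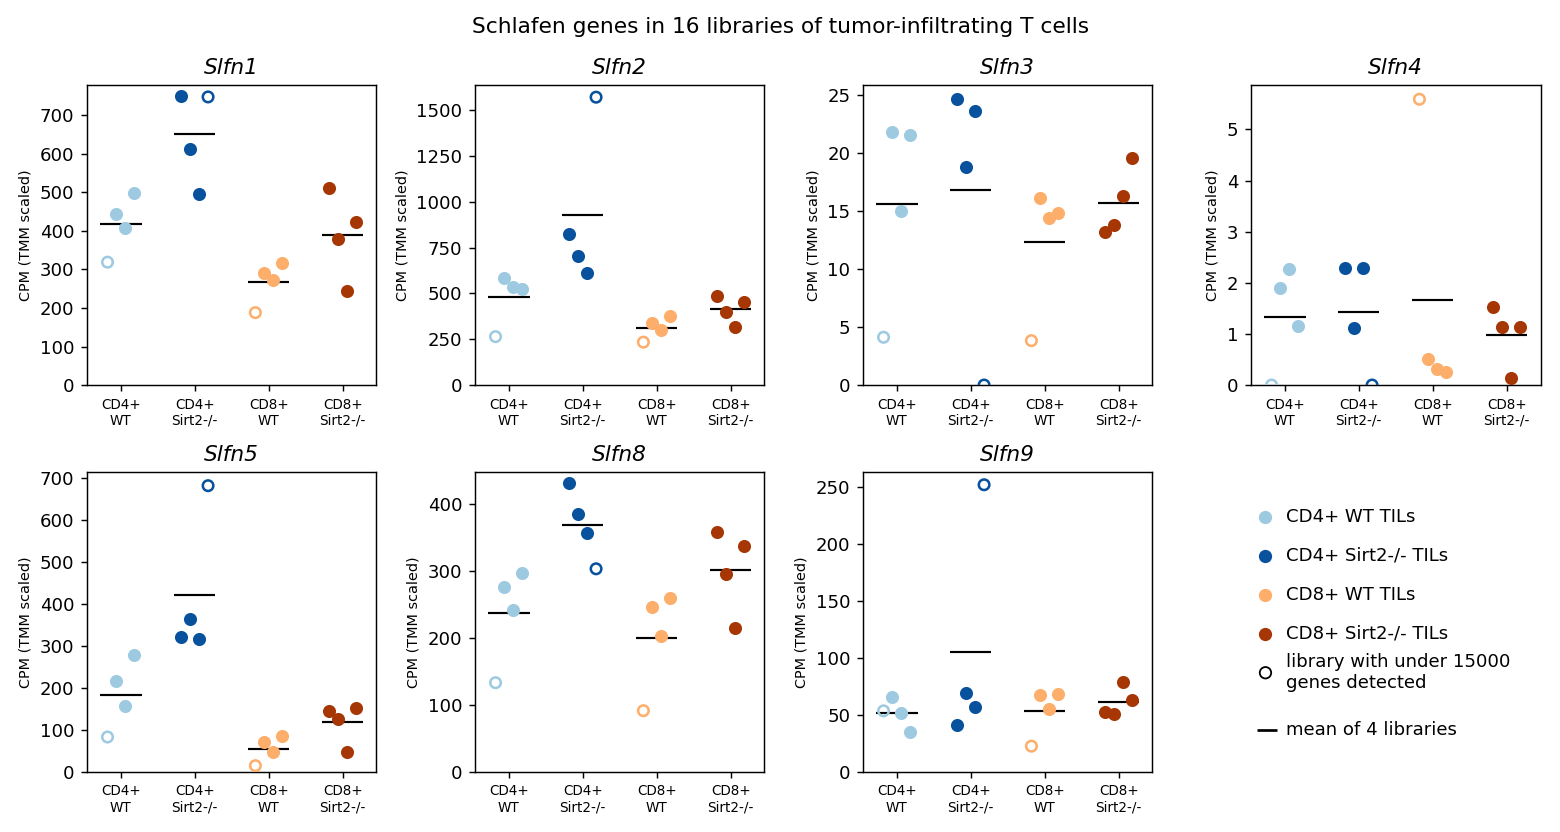
CPM of the 7 genes in each library (points), by group, with the mean of the 4 libraries (bars) and open points for the 3 libraries with under 15000 genes detected. In CD4+ TILs the Sirt2-/- libraries lie above the WT libraries for Slfn2, Slfn5 and Slfn8, and the group without Sirt2 holds 1 library far above the rest for Slfn2 (1570.2 CPM), Slfn5 (681 CPM) and Slfn9 (252 CPM).

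In CD8+ TILs the same question gave smaller separations. Slfn1, Slfn2, Slfn5 and Slfn8 were again higher without Sirt2 at an unadjusted p below 0.05, by 1.32-fold to 2.18-fold, but the groups of all 7 genes overlapped, while those of 1.72% of all genes did not in this direction, and no member was called. Of the 15302 genes tested, 2.18% were higher at an unadjusted p below 0.05 and 1 was called, which was Sirt2 itself (log2 fold change -2.22 ± 0.21, adjusted p = 0.0066, edgeR).

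Slfn5 was at 145, 126, 47.9 and 153 CPM in the 4 CD8+ Sirt2-/- libraries and at 14.5, 72, 47.8 and 84.8 CPM in the 4 CD8+ WT libraries. Apart from replicate 3, which lay among the WT libraries, each Sirt2-/- library was above all of them. The log2 fold change was 1.12 ± 0.47 (SE; unadjusted p = 0.036, adjusted p = 0.99, edgeR), and 0.82 ± 0.44 (unadjusted p = 0.11) without CD8+ WT replicate 1.

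Slfn2 was at 484, 397, 316 and 455 CPM without Sirt2 and at 234, 336, 301 and 378 CPM in WT. Slfn1 was at 511, 378, 245 and 422 CPM against 188, 291, 273 and 317 CPM. Slfn8 was at 358, 295, 215 and 337 CPM against 91.2, 246, 202 and 259 CPM. In all 3 genes replicate 3 was the lowest Sirt2-/- library and fell below at least 1 WT library, and replicate 1 was the lowest WT library.

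The log2 fold changes were 0.40 ± 0.15 for Slfn2, 0.54 ± 0.21 for Slfn1 and 0.60 ± 0.26 for Slfn8 (SE; unadjusted p = 0.025, 0.024 and 0.043, adjusted p = 0.99 for each, edgeR). Without CD8+ WT replicate 1 they were 0.31, 0.43 and 0.37. Slfn8 alone of the members then had an unadjusted p below 0.05 (adjusted p = 1, edgeR), where 2.87% of all genes were higher at that level. No member's groups were then apart, while those of 2.5% of all genes were, and 0.0125% of all genes were called higher. Slfn9 (0.21 ± 0.27) and Slfn3 (0.36 ± 0.35) differed by about their standard errors. Slfn4 was at 5.59 CPM in CD8+ WT replicate 1 and at 0.26 to 0.513 CPM in the other WT libraries, and its log2 fold change turned from -0.84 ± 1.07 to 1.45 ± 0.76 when that library was left out (adjusted p = 0.99 and 1, edgeR).

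Slfn1, Slfn2, Slfn5 and Slfn8 were thus higher without Sirt2 at an unadjusted p below 0.05 in both cell types. The cell types share no library, but the labels do not say whether the same mice gave both. In all, 40 of the 14259 genes tested in both, or 0.281%, were higher at that level in each. When the libraries with few genes were left out, Slfn8 alone of the members was higher at that level in both. Of all genes, 2.6% were then higher at that level in CD4+ and 2.87% in CD8+ TILs. The share of all genes higher in both was not computed without those libraries, so this count has no background. The test of the difference between the genotype effects of the cell types called 0 of 17270 genes, by edgeR, with 0 of the 7 members at an unadjusted p below 0.05, as 0.944% of all genes were in the higher and 1.04% in the lower direction. The differences (CD8+ minus CD4+, log2) were -0.56 ± 0.39 for Slfn2, -0.81 ± 0.65 for Slfn9 and between -0.09 and -0.04 for Slfn1, Slfn5 and Slfn8 (SE 0.29 to 0.69). Without the 3 libraries with few genes they were -0.07 ± 0.20 for Slfn2 and -0.16 ± 0.30 for Slfn9. A difference between the cell types was not detectable at this spread.

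**Figure D3:**
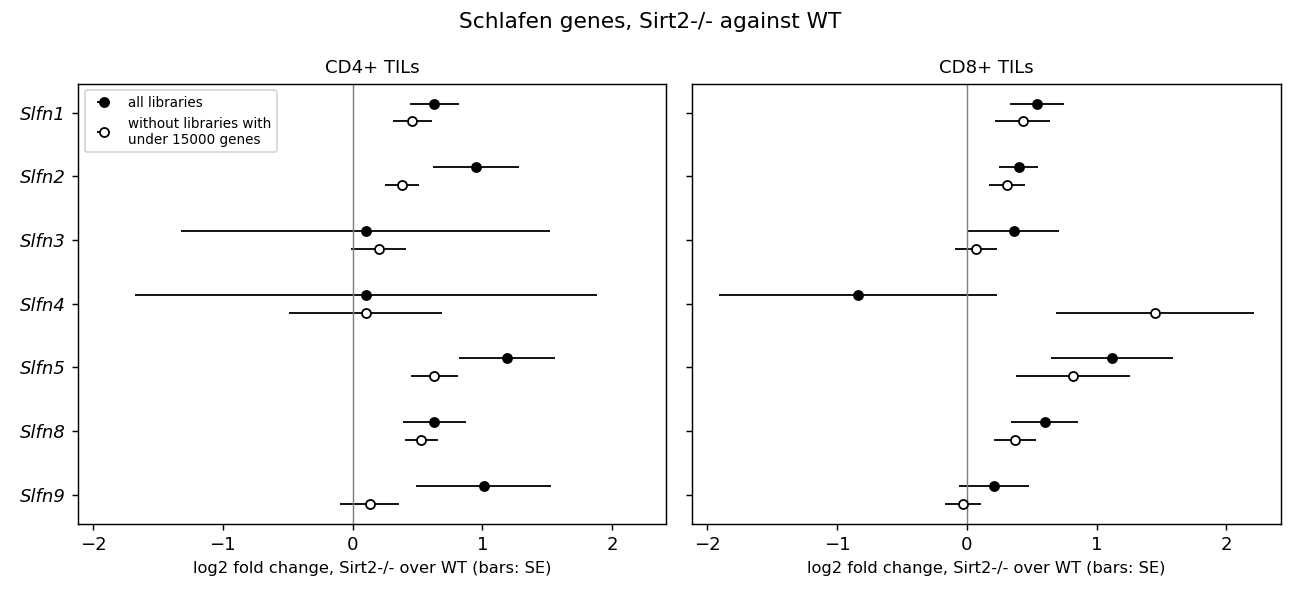
Log2 fold change of the 7 genes, Sirt2-/- over WT (points) with the standard error (bars), in CD4+ TILs (left) and CD8+ TILs (right), over all libraries (filled) and without the 3 libraries with under 15000 genes detected (open). Slfn1, Slfn2, Slfn5 and Slfn8 lie above 0 in both cell types under both choices, and Slfn4 changes side in CD8+ TILs.

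Other Schlafen genes and the neighbors of the cluster were read in the same fits. Slfn10-ps, a transcribed pseudogene between Slfn8 and Slfn2 that shares 7.84% of its windows, mainly with Slfn9 and Slfn8, differed by 0.25 ± 0.37 in CD4+ TILs and by -0.34 ± 0.15 in CD8+ TILs (log2, Sirt2-/- over WT; unadjusted p = 0.51 and 0.039, adjusted p = 1 and 0.99, edgeR). Slfn5os had a mean of at most 1.22 CPM in any group and log2 fold changes of 0.82 ± 1.77 in CD4+ and 1.14 ± 1.19 in CD8+ TILs. Slfn14 and Slfnl1, with means of at most 0.137 and 0.398 CPM, were too low to be tested. Of 57 other genes within 500 kb of the cluster, 20 were tested in CD4+ and 22 in CD8+ TILs, and none was called between genotypes by edgeR. At an unadjusted p below 0.05 there was 1 in CD8+ TILs, the chemokine gene Ccl9, and 0 in CD4+ TILs. Without the libraries with few genes there were 2 higher in CD8+ TILs and 2 higher and 2 lower in CD4+ TILs. At that level 2.18% of all genes in CD8+ and 0.995% in CD4+ TILs were higher, and 2.87% and 2.6% without those libraries. In CD4+ TILs 280 of 16034 genes were then lower.

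The next comparison set the cell types against each other. In WT mice, Slfn1 and Slfn5 were lower in CD8+ than in CD4+ TILs and passed the adjusted threshold in edgeR, as did 6.96% of 14892 genes in that direction. Together with Slfn2 they made 3 of 7 members lower at an unadjusted p below 0.05, against 13.5% of all genes. Slfn5 was 3.54-fold lower (log2 fold change -1.82 ± 0.47, adjusted p = 0.028), and its groups overlapped only through CD4+ WT replicate 1, at 82.8 CPM, against a highest CD8+ value of 84.8 CPM. Slfn1 was 1.64-fold lower (-0.71 ± 0.17, adjusted p = 0.019), at 319 to 499 CPM in CD4+ and 188 to 317 CPM in CD8+ TILs, and its groups did not overlap, as those of 10.2% of all genes did not in this direction. The calls of both genes were lost when any 1 of 5 other libraries was left out (CD4+ WT replicates 2, 3 and 4 and CD8+ WT replicates 2 and 3), with adjusted p from 0.052 to 0.1.

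Slfn2 was 1.61-fold lower in CD8+ WT TILs (-0.68 ± 0.23, adjusted p = 0.079, edgeR) and did not pass. Without the 3 libraries with few genes, it did, together with Slfn1, Slfn5 and Slfn4: the log2 fold changes were -0.71 for Slfn2, -0.63 for Slfn1, -1.68 for Slfn5 and -2.28 for Slfn4 (adjusted p = 0.00076, 0.0018, 0.00039 and 0.03, edgeR), where 13.1% of all genes were called lower and 17.9% were lower at an unadjusted p below 0.05. The same 4 genes were then the members whose groups did not overlap, as did those of 20.2% of all genes not in this direction. Slfn4 stood at 0.32 ± 1.47 in all libraries, and at -1.89 when CD8+ WT replicate 1 alone was left out. Slfn8, Slfn9 and Slfn3 were not called in WT mice under either choice. In all libraries they stood at -0.33 ± 0.30, -0.03 ± 0.30 and -0.43 ± 0.54.

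In Sirt2-/- mice all 7 genes had a lower fitted level in CD8+ than in CD4+ TILs, and none was called. Slfn1, Slfn2 and Slfn5 were lower at an unadjusted p below 0.05, as were 6.38% of all genes. Slfn5 was at 315 to 681 CPM in CD4+ and 47.9 to 153 CPM in CD8+ TILs and Slfn2 at 609 to 1570.2 against 316 to 484 CPM, so neither overlapped, like 6.37% of all genes in this direction. Their log2 fold changes were -1.83 ± 0.40 and -1.17 ± 0.30 (adjusted p = 0.059 and 0.10, edgeR), where 1.32% of 15787 genes were called lower. Without CD4+ Sirt2-/- replicate 4, Slfn2 (-0.81, adjusted p = 0.0034), Slfn5 (-1.51, adjusted p = 0.02) and Slfn3 (-0.53, adjusted p = 0.048) passed, and 11.6% of all genes were called lower. Slfn1 and Slfn8 joined them at an unadjusted p below 0.05, as did 16.8% of all genes, the groups of Slfn2 and Slfn5 did not overlap, nor did those of 15.6% of all genes, and Slfn9 turned to 0.12 ± 0.19. The comparisons between cell types share their libraries with those between genotypes. Of 14600 genes tested in both genotypes, 5.03% were lower in CD8+ TILs at an unadjusted p below 0.05 in each, with Slfn1, Slfn2 and Slfn5 among them. Markers of regulatory T cells (Foxp3, Il2ra, Ctla4, Ikzf2 and Tnfrsf18) differed between the cell types too, with sums of 1363 to 2840.2 CPM in CD4+ and 162 to 411 CPM in CD8+ libraries, and all 5 were called lower in CD8+ TILs in both genotypes. Their part in the Schlafen levels was not tested.

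**Figure D4:**
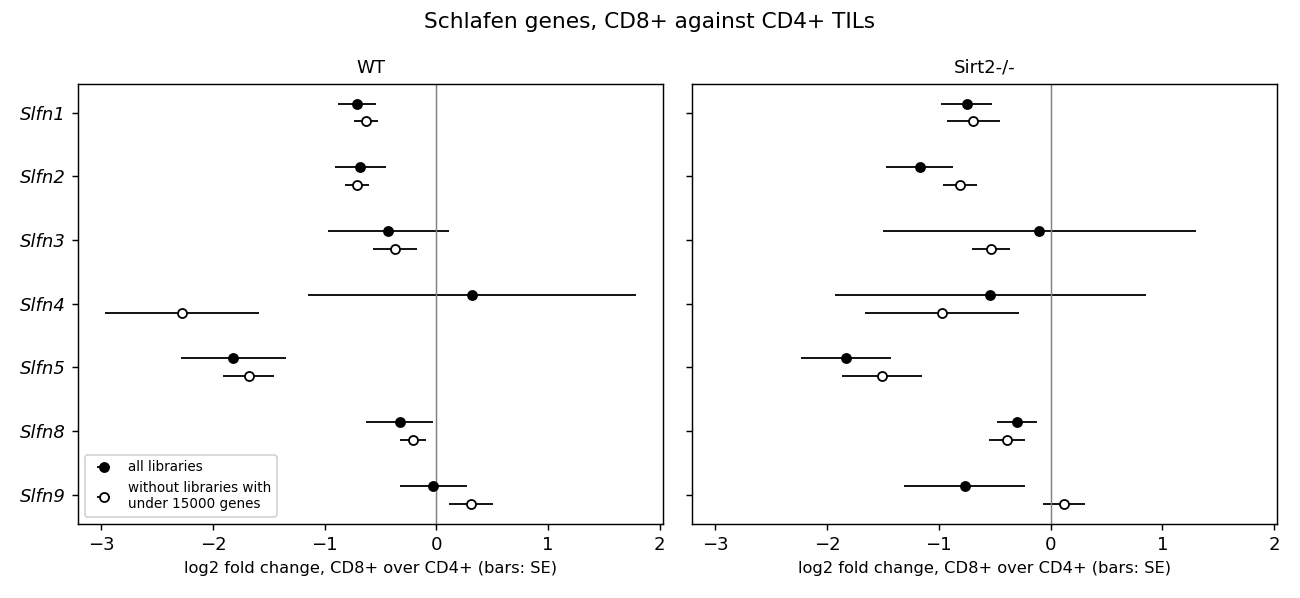
Log2 fold change of the 7 genes, CD8+ over CD4+ TILs (points) with the standard error (bars), in WT (left) and Sirt2-/- mice (right), over all libraries (filled) and without the 3 libraries with under 15000 genes detected (open). Slfn1, Slfn2 and Slfn5 lie below 0 in both genotypes, Slfn5 lowest or next to lowest, and Slfn8 lies closer to 0.

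The makeup of the family differed with the cell type. Within a library, Slfn5 stood to Slfn1 at 0.382 to 0.634 in the 6 CD4+ libraries with many genes and at 0.175 to 0.363 in the 7 such CD8+ libraries. Slfn8 stood to Slfn1 at 0.573 to 0.72 in those CD4+ libraries and at 0.7 to 0.878 in those CD8+ libraries, so the cell types overlapped for Slfn8 but not for Slfn5. The ratio of Slfn2 to Slfn1 ran from 0.946 to 1.32 in the same 13 libraries and overlapped between all groups. Over all 16 libraries the ratio of Slfn5 to Slfn1 ran from 0.259 to 0.911 in CD4+ and from 0.0771 to 0.363 in CD8+ TILs, so that it overlapped too. These ratios are of CPM and carry no test.

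Across the 16 libraries, Slfn1, Slfn2, Slfn5 and Slfn8 ran more closely with each other than Slfn3, Slfn4 or Slfn9 did with them. Spearman's rho, as a description over libraries that also share group and depth, was 0.81 to 0.97 among Slfn1, Slfn2, Slfn5 and Slfn8 and 0.02 to 0.19 between Slfn9 and these 4. Over the 13 libraries with many genes, rho of Slfn9 with these 4 was -0.4 to -0.26. That of Slfn4 with them went from 0.18 to 0.25 over all libraries to 0.54 to 0.79. For Slfn3 it was 0.35 to 0.49 over all libraries and 0.42 to 0.68 over the 13. Within the 8 CD8+ libraries alone, rho among the 4 was 0.95 to 1, and within the 8 CD4+ libraries it was 0.79 to 0.9.

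The genes whose levels ran most like a member among 17269 others differed between members. Slfn8 was closest to Zbp1, Oasl2 and Parp12 (rho 0.98, 0.96 and 0.95, n = 16), of which Zbp1 senses left-handed nucleic acids and Oasl2 belongs to the oligoadenylate synthetase family. Slfn1 was closest to Gbp7, Parp14 and Gbp9 (0.96, 0.94 and 0.94), of which Gbp7 and Gbp9 encode guanylate-binding proteins. Slfn2 was closest to the nonclassical class I gene H2-T22 (0.98), to Slfn5 (0.97) and to Gimap6 (0.96), a GTPase of lymphocytes. Slfn5 was closest to Sdc3 (0.97), Slfn2 (0.97) and Zeb1 (0.96), a repressor of transcription. Slfn9 was closest to cytoplasmic actin Actg1 (0.91), Stx7 (0.89) and Fli1 (0.87), and Slfn3 to N4bp2os (0.93), 6530402F18Rik (0.92) and Gm13274 (0.91). Without the 3 libraries with few genes, at most 1 of the 3 genes named for each member was still among its 3 closest, and none for Slfn3.

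Levels of interferon-stimulated genes were set beside those of the family, and the part of interferon in the Schlafen levels was not tested. A list of 30 interferon-stimulated genes without Schlafen members summed to 3678 to 4372 CPM in the CD4+ Sirt2-/- libraries and 1042 to 3166 CPM in the CD4+ WT libraries. In CD8+ TILs the sum was 2066 to 3852 CPM without Sirt2 and 813 to 2562 CPM in WT, and the lowest library of each group was the same as for Slfn8, except in CD4+ Sirt2-/- TILs. Over the 16 libraries, rho of a gene with this sum was 0.96 for Slfn8, 0.92 for Slfn1, 0.88 for Slfn2 and 0.86 for Slfn5. It was 0.35 for Slfn3, 0.17 for Slfn4 and 0.15 for Slfn9. Over the 13 libraries with many genes it was 0.99 for Slfn8, 0.91 for Slfn1 and 0.79 for both Slfn2 and Slfn5. Slfn4 was then at 0.58, Slfn3 at 0.37 and Slfn9 at -0.29.

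All 30 genes of that list had a log2 fold change above 0 in CD4+ TILs (median 0.71, against -0.11 for all genes) and all 30 in CD8+ TILs (median 0.89, against 0.01), with 0 called in either by edgeR. At an unadjusted p below 0.05 were 5 in CD4+ TILs, with Herc6 (1.18 ± 0.37), Ifit2 (0.89 ± 0.29) and Zbp1 (0.93 ± 0.37) among them, and 16 in CD8+ TILs, with Zbp1 (1.19 ± 0.35) and the antiviral GTPase Mx2 (1.28 ± 0.38) among them. The background at that level was 0.995% and 2.18% of all genes. Without the libraries with few genes, 20 in CD4+ and 13 in CD8+ TILs were higher at that level, against 2.6% and 2.87% of all genes. The number above 0 was then 29 of 30 in CD4+ TILs (median 0.46) and 30 of 30 in CD8+ TILs (median 0.61). The 7 Schlafen genes had medians of 0.63 in CD4+ and 0.40 in CD8+ TILs over all libraries, and of 0.38 and 0.37 without those with few genes.

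Upstream genes of the pathway were read from their own lists. Of 8 signal transducers, 5 were higher in CD8+ Sirt2-/- TILs at an unadjusted p below 0.05, with Stat2 (0.68 ± 0.17), Irf1 (0.63 ± 0.19) and Irf7 (1.01 ± 0.42) among them. In CD4+ TILs 0 were, and without the libraries with few genes 3 were in each cell type. The share of all genes higher at that level was 2.18% in CD8+ and 0.995% in CD4+ TILs, and 2.87% and 2.6% without those libraries. None of the 8 was called. Of 6 receptor genes 5 were tested and 0 called. In CD8+ TILs, Ifngr1 (0.57 ± 0.21) and Ifngr2 (1.28 ± 0.35) were higher and Ifnar2 (-0.33 ± 0.13) lower at an unadjusted p below 0.05 (adjusted p = 0.99 for each, edgeR). In CD4+ TILs none reached that level. Without the libraries with few genes, 1 was higher and 0 lower in CD8+ TILs, and still 0 reached it in CD4+ TILs. Of 9 interferon genes only Ifng was expressed enough to be tested, at log2 fold changes of -0.49 in CD4+ and 0.41 in CD8+ TILs. Of 6 inhibitors, Socs1 alone reached an unadjusted p below 0.05 between genotypes over all libraries (0.46 ± 0.17 in CD8+ TILs). Without those with few genes, 1 was higher in CD4+ TILs, and 1 was higher and 1 lower in CD8+ TILs.

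**Figure D5:**
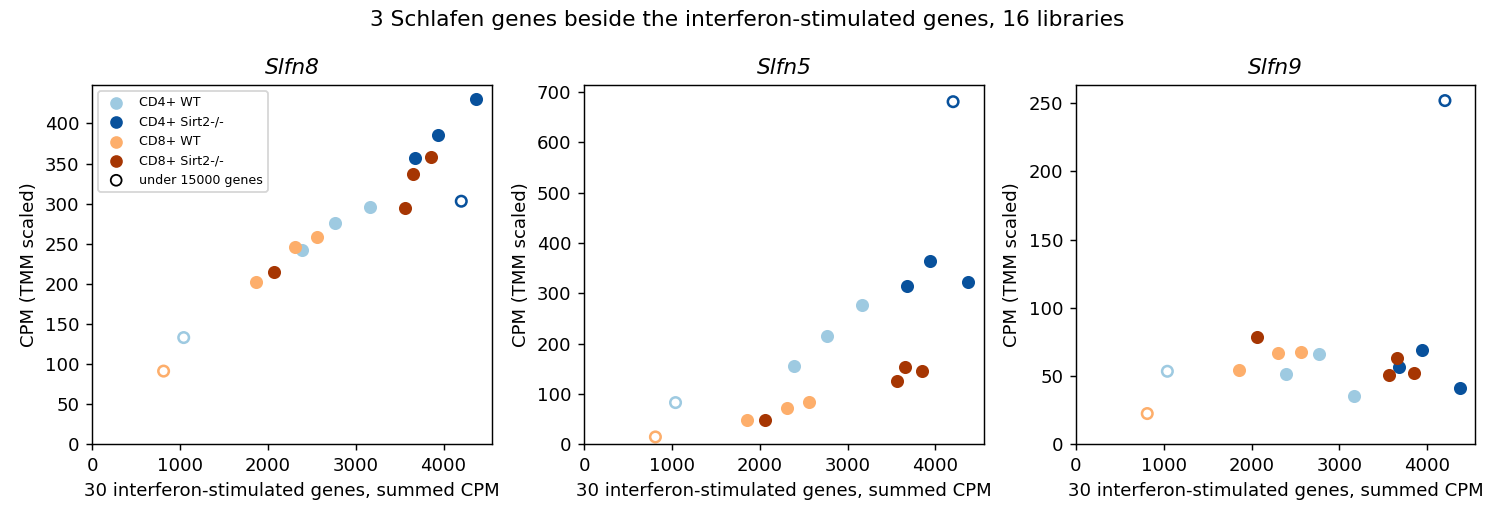
CPM of Slfn8, Slfn5 and Slfn9 against the summed CPM of 30 interferon-stimulated genes, 1 point per library, colored by group, with open points for the 3 libraries with under 15000 genes detected. Slfn8 rises with the sum along 1 band for both cell types, Slfn5 lies higher in the CD4+ than in the CD8+ libraries at a like sum, and Slfn9 shows no such rise.

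Genes that hold T cells quiescent, the process for which Slfn2 is known, were set beside the family. Of 18 such genes, 0 were called between genotypes in either cell type by edgeR. At an unadjusted p below 0.05 there was 1 in CD4+ TILs and 0 in CD8+ TILs, or 4 and 0 without the libraries with few genes, all higher. The share of all genes higher at that level was 0.995% and 2.18%, or 2.6% and 2.87% without those libraries. Between cell types in WT mice, 8 of the 18 were lower in CD8+ TILs and 0 higher (median -0.55, against -0.02 for all genes, of which 6.96% were called lower). They were Runx1 (-2.37 ± 0.21), Il7r (-1.54 ± 0.22), Cdkn1b (-1.16 ± 0.18), Tob1 (-1.69 ± 0.29), S1pr1 (-0.75 ± 0.16), Lef1, Tcf7 and Tsc1, and in Sirt2-/- mice Runx1 (-2.51 ± 0.20) and Cdkn1b (-1.39 ± 0.21) were called, against 1.32% of all genes. Without the libraries with few genes, 12 were called lower and 1 higher in WT mice and 11 lower and 1 higher in Sirt2-/- mice, against 13.1% and 11.6% of all genes called lower. Of 30 interferon-stimulated genes, Oas1a was called between cell types in WT mice over all libraries (-1.15 ± 0.32, adjusted p = 0.039, edgeR), and 11 were called lower and 1 higher without the libraries with few genes. In Sirt2-/- mice 0 of the 30 were called over all libraries, and 3 lower and 2 higher without the library with few genes. All genes called lower were 13.1% in WT and 11.6% in Sirt2-/- mice without those libraries. Among 10 genes of tRNA cleavage and the stress response to it, 0 were called between genotypes by edgeR, with 0 at an unadjusted p below 0.05 over all libraries. Without those with few genes, 3 in CD4+ and 1 in CD8+ TILs were lower at that level, as were 280 of 16034 and 208 of 15943 genes tested. Nsun2, a tRNA methyltransferase, was higher in CD8+ WT TILs (0.86 ± 0.16, adjusted p = 0.0048, edgeR).

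Cells other than T cells also express Schlafen genes, and the study's methods describe a purification of TILs on CD3e beads, which select T cells. The 15 macrophage and monocyte markers summed to 168 to 369 CPM in CD4+ Sirt2-/-, 120.1 to 235 in CD4+ WT, 234 to 389.8 in CD8+ Sirt2-/- and 193 to 366 CPM in CD8+ WT libraries. The median sum without Sirt2 against WT was 309 against 172 CPM in CD4+ and 341 against 324 CPM in CD8+ TILs. Between genotypes 10 of 11 tested were above 0 in CD4+ TILs (median 1.05) and 12 of 12 in CD8+ TILs (median 2.08), with 0 called by edgeR, and 1 and 3 at an unadjusted p below 0.05. Without the libraries with few genes, 13 of 14 were above 0 in CD4+ TILs (median 0.98, 2 at that level). In CD8+ TILs 11 of 13 were (median 1.88, 3 at that level). Of this list, Ly6c2 was called higher (3.82 ± 0.93) and Ccr2 lower (-1.53 ± 0.24) in CD8+ than in CD4+ WT TILs. Whether the sum measures macrophage RNA was not tested. None of the 15 was at 0 in every library of a group. The 7 stromal markers summed to 64.4 to 184 CPM in CD4+ Sirt2-/-, 95.2 to 118 in CD4+ WT, 41.2 to 109 in CD8+ Sirt2-/- and 34.2 to 49.4 CPM in CD8+ WT libraries. Between genotypes 3 of 3 tested were above 0 in both cell types (medians 1.3 in CD4+ and 2.08 in CD8+ TILs), with 0 called, and 0 and 2 at an unadjusted p below 0.05. Without the libraries with few genes, 5 of 5 were above 0 in CD4+ TILs (median 3.17, 3 at that level) and 4 of 4 in CD8+ TILs (median 2.51, 1 at that level). The share of all genes higher at that level was 0.995% in CD4+ and 2.18% in CD8+ TILs, or 2.6% and 2.87% without those libraries. The part of macrophages, monocytes and stromal cells in the Schlafen levels was not tested. In bulk RNA a lower level can come from fewer cells of a kind or from less RNA per cell, and these cannot be told apart.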

How the data were processed

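Total RNA of CD4+ and CD8+ TILs (4 libraries a group, 16 in all) was made into stranded libraries depleted of ribosomal RNA, and the authors deposited raw counts per gene without normalization. Per the labels STAR, HTSeq and the mm10 build were used. Their versions, the strand setting and the handling of reads with several matches are not given in the sources used here. All 55450 gene identifiers matched GENCODE M21, and 0 columns were left unmapped. Libraries were grouped by the labels, which do not tie them to single mice, so p-values measure the spread between these samples. Total counts were 28000949 to 62407851, and no replicates were alike within sampling noise.

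Tests were run with edgeR 4.0.16 under R 4.3.3, using TMM scaling, filterByExpr by group and the robust quasi-likelihood fit, with 1 fit per comparison and all 16 libraries for the difference between cell types. Tests were two-sided, with Benjamini-Hochberg adjustment over all genes and a threshold of 0.05. The SE is the log2 fold change divided by the root of F. CPM was scaled by TMM over the 16 libraries, and gene length was the union of exons. Spearman correlations used log2 CPM with a prior count of 2. Coding sequences were aligned with mafft 7.526. Alternatives were DESeq2 1.42.0, limma 3.58.1 (voom with quality weights), other scalings, filters and thresholds, a replicate block, all libraries in 1 model and leaving libraries out. The fits were run on simulated counts with planted changes and a fixed dispersion. No simulated library had few genes detected, so this does not test what such libraries do.

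The 7 members, the gene lists and the tests were chosen with earlier results of these data known. The rule named the members, Sirt2, the other Slfn genes, the 3 genes closest in rho to each member with a mean of at least 10 CPM, and, of the interferon and quiescence lists, at most 5 called genes with the smallest p per comparison. Other list genes and Ccl9 were named after their values were seen, and some list genes are counted but not reported here by name.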

Additional observations from a re-analysis of the deposited data

Results flagged for a closer look

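Of 28 sets of 4 values (7 genes in 4 groups), 4 held a value far from the other 3 by Dixon's criterion, where chance gives about 1.4. In CD4+ Sirt2-/- replicate 4, Slfn5 was at 681 CPM against 315 to 364 CPM in the other libraries of the group, and Slfn9 was at 252 CPM against 41.2 to 69 CPM. In CD8+ WT replicate 1, Slfn3 was at 3.82 CPM against 14.4 to 16.1 CPM, and Slfn4 was at 5.59 CPM against 0.26 to 0.513 CPM. Both libraries are among the 3 with under 15000 genes detected.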

How the results depend on the processing

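No member was called between genotypes in either cell type under any alternative, and the log2 fold changes of Slfn1, Slfn2, Slfn5 and Slfn8 stayed above 0 in both. The weak members and the counts of called genes moved most, and the cause was not tested. Slfn4, at 0 to 196 counts, turned direction under some alternative in every comparison but that between cell types in Sirt2-/- mice. There its log2 fold change ran from -1.04 to -0.12 under the alternatives.

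Genes called in CD4+ TILs between genotypes (0) became 6 without the 3 libraries with few genes, 7 with DESeq2 and 4 with limma-voom. In CD8+ TILs the 1 gene called became 3 at an adjusted p below 0.1, 28 with DESeq2, 4 with limma-voom, 5 with no filter, 7 without the libraries with few genes and 4 with the replicate block, and 0 to 7 when 1 library was left out (0 without CD8+ Sirt2-/- replicate 1 or 4, 7 without CD8+ WT replicate 1). In WT mice the 1765 genes called between cell types became 2651 with DESeq2, 5481 with limma-voom, 4394 when the libraries with few genes were left out and 811 in 1 model of all 16 libraries, and 1022 to 2767 when 1 library was left out. Their 2 called members became 4 without the libraries with few genes and likewise 4 with limma-voom, 1 with no filter and 0 in the model of all 16, and 0 to 3 when 1 library was left out. In Sirt2-/- mice 354 genes became 616 at an adjusted p below 0.1, 1339 with DESeq2, 4474 with limma-voom, 907 with at least 10 counts in every library, 4250 without CD4+ Sirt2-/- replicate 4, 108 with the replicate block and 781 in the model of all 16, and 111 to 4250 when 1 library was left out. Their 0 called members became 1 at an adjusted p below 0.1 and in the model of all 16, 2 with DESeq2 and with at least 10 counts, and 3 without that library and with limma-voom, and 0 to 3 when 1 library was left out. The difference between cell types gave 2 genes with DESeq2.

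The following log2 fold changes turned direction. Between genotypes in CD4+ TILs, Slfn4 was at -0.18 with limma-voom, and Slfn3 and Slfn4 were at -0.16 and -0.35 with the replicate block and at -0.22 to 0.52 and -0.32 to 0.51 when 1 library was left out. In CD8+ TILs, Slfn4 was at 0.98 with limma-voom, 1.45 without the libraries with few genes, 0.04 with the block and -1.18 to 1.45 when 1 was left out, and Slfn9 was at -0.06, -0.03 and, when 1 was left out, -0.03 to 0.34. Between cell types in WT mice, Slfn4 was at -2.3 with limma-voom, -2.28 without the libraries with few genes, -1.32 with the block and -1.89 to 0.71 when 1 was left out. Slfn9 was at 0.15 with limma-voom, 0.31 without the libraries with few genes, 0.04 with no filter and in the model of all 16, 0.001 with at least 10 counts and -0.16 to 0.26 when 1 was left out. In Sirt2-/- mice, Slfn9 was at 0.01 with limma-voom, 0.12 without the library with few genes and -1.06 to 0.12 when 1 was left out, and Slfn3 was at 0.37 with the block and -0.53 to 0.13 when 1 was left out. In the difference between cell types, Slfn3 was at -0.16 and Slfn4 at 1.13 with limma-voom, Slfn3 at -0.12 and Slfn4 at 1.35 without the libraries with few genes, Slfn4 at 1.14 with the block, Slfn5 at 0.02 with at least 10 counts and 0.19 without the libraries with few genes, and Slfn8 at 0.02 with at least 10 counts. When 1 library was left out these differences ran from -0.25 to 0.08 for Slfn1, -0.17 to 0.57 for Slfn3, -1.3 to 1.34 for Slfn4, -0.39 to 0.23 for Slfn5, -0.27 to 0.15 for Slfn8 and -1.08 to 0.09 for Slfn9.

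Of the 3 genes closest in rho to each member, 1 was still among the closest 3 without the libraries with few genes for Slfn1, Slfn2, Slfn5, Slfn8 and Slfn9, and 0 for Slfn3. The order of the levels per kb was the same with the longest transcript as gene length, a choice added after seeing the data. Libraries of the same number in the 2 cell types of WT mice correlated in their deviations at 0.07 to 0.12, each best with its own number. In Sirt2-/- mice this was -0.01 to 0.13, and only number 1 was best with its own. This is a hint in WT mice and not a pairing in the design. With the replicate block, Slfn2 passed the threshold between cell types in WT mice (-0.63, adjusted p = 0.048, edgeR).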
